A study of Mus musculus with 7 samples.

Results

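Aldehyde dehydrogenases were followed in sorted pancreatic β-cells of db/db mice with and without Aldh1a3, to see whether other enzymes of this kind changed with the db/db genotype or with loss of Aldh1a3. The 10 genes were taken by symbol from the 35013 gene symbols counted by RNA-seq. They are Aldh1a3, its closest relatives Aldh1a1, Aldh1a2 and Aldh1a7, and the more distant Aldh1b1, Aldh2, Aldh3a2, Aldh7a1, Aldh9a1 and Aldh1l2. A further 11 aldehyde dehydrogenase genes in the same counts served for comparison, which makes 21 in all.

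There were 7 libraries, 1 per mouse, from 2 mice labelled Aldh1a3 KO_db/db, 2 labelled db/db and 3 labelled db/+. Mice of all groups carried RIP-Cre Herr, in which the rat insulin promoter drives Cre in β-cells, and a tdT fl/+ reporter. At Aldh1a3 the KO_db/db mice were fl/fl and both control groups fl/+, so that the controls were heterozygous for the β-cell deletion. At Lepr the KO_db/db and db/db mice were db/db and the lean mice db/+. The db allele removes leptin receptor signalling and the homozygotes become obese and diabetic, so that body weight, glycaemia and genotype cannot be told apart. Adult mice of both sexes were used, without the sex or exact age of each donor in the labels, and islets were taken after a fast. The methods describe sorting of Aldh+ β-cells by an aldehyde dehydrogenase substrate dye and YFP. YFP was the reporter of the paper's lineage-tracing mice and is not among the alleles above, so that gate as written does not apply here. Whether the dye was used in sorting these libraries is not stated. A gate on aldehyde dehydrogenase activity would bear directly on these genes.

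Aldehyde dehydrogenases oxidise reactive aldehydes to carboxylic acids with NAD or NADP. The enzymes of the 1A group turn retinaldehyde into retinoic acid, the ligand of nuclear retinoic acid receptors, while others clear acetaldehyde and lipid aldehydes or serve amino acid, carnitine and folate metabolism. In the pancreas, Aldh1a3 is known as a marker of dedifferentiated β-cells, and Aldh1b1 and Aldh1a1 are known from progenitor and exocrine cells.

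Because transcripts of close relatives can be hard to tell apart in short reads, the coding sequences were compared first. Aldh1a1 and Aldh1a7, neighbours on chromosome 19 on opposite strands, shared 91.6% of aligned coding bases. The other pairs within the 1A group were 68.7% to 69.9% identical, and Aldh2 and Aldh1b1 were 70.2% identical. The coding stretch below is shown because Aldh1a1 and Aldh1a7 are identical over all of its 90 bases, while Aldh1a2 differs at 22 and Aldh1a3 at 24 positions. Capitals mark bases that differ from Aldh1a1, and the sequences are in the sense direction from the reference genome (GRCm38). They lie in exon 11 of Aldh1a1 (chr19:20629063-20629152, plus strand), exon 8 of Aldh1a7 (chr19:20709402-20709491, minus strand), exon 8 of Aldh1a2 (chr9:71281613-71281702, plus strand) and exon 8 of Aldh1a3 (chr7:66407805-66407894, minus strand), exons being those of the transcript compared.
Aldh1a1: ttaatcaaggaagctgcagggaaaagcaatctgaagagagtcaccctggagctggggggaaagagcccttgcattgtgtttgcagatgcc
Aldh1a7: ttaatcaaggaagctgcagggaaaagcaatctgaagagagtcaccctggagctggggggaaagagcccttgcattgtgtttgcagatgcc
Aldh1a2: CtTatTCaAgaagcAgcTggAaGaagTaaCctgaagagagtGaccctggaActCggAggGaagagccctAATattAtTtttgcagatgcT
Aldh1a3: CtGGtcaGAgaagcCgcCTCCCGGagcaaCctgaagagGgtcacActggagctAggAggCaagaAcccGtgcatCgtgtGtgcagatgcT

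The longest run of identical coding bases between Aldh1a1 and Aldh1a7 was 100 bases, the length of 1 read. Over all annotated transcripts, 281 words of 31 bases were common to Aldh1a1 and Aldh1a7, which was 5.70% of the distinct words of Aldh1a1 and 13.8% of those of Aldh1a7. Their counts below are therefore uncertain between each other and are also given as a sum. No word of 31 bases was shared between Aldh1a3 and Aldh1a1, Aldh1a2 or Aldh1a7. Aldh1l2 shared 14.7% of its words with other genes, mostly D10Wsu102e, and Aldh7a1 shared 7.50%, mostly with Phax, counted in either orientation. For the other members the share was 0% to 2.26%.

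The sequence before the transcription start was also alike in Aldh1a1 and Aldh1a7. The 250 bases before the start of each are shown from RefSeq (GRCm38.p6), for Aldh1a1 at chr19:20601718-20601967 on the plus strand, the nearer to its first coding exon of its starts listed there, and for Aldh1a7 at chr19:20727557-20727806 on the minus strand. Capitals mark CCAAT and TATAAA.
Aldh1a1: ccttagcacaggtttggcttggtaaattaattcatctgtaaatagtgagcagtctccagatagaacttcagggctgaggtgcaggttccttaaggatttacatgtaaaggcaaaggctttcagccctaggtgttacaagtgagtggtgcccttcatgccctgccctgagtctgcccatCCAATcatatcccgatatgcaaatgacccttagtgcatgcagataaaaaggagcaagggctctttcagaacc
Aldh1a7: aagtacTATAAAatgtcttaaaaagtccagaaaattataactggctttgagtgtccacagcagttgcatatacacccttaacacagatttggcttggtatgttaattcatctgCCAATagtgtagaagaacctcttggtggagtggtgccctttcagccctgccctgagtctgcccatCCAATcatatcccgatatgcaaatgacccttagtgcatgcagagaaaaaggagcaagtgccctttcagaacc
Over the last 100 bases, 94 of 100 aligned bases were the same, with an identical run of 65 bases, and over all 250 bases 73.6% of aligned bases were the same. Both hold CCAAT with its first base 72 bases before the start, and Aldh1a7 holds a second CCAAT and a TATAAA farther upstream. Searched as letters on both strands, CCAAT was present in 33.9% and TATAAA in 12.4% of 32851 mouse promoters of this length. The nuclear receptor motif AGGTCA, present in 14.0% of promoters, was not in the 7 windows of the 6 members matched. A promoter entry was matched for Aldh1a1, Aldh1a2, Aldh1a7, Aldh1b1, Aldh3a2 and Aldh9a1.

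Total counts were 27496645 to 35852785 per library, and levels are given as CPM, counts relative to the scaled library size, after TMM scaling over the 7 libraries. A count of 3, taken as the floor, was worth 0.0717 to 0.123 CPM. All 12 counted genes of 13 β-cell markers were detected in each library and took 24.9% to 38.8% of counts. Of 35 acinar genes (digestive enzymes, other secretory proteins and the transcription factors Bhlha15, Ptf1a and Rbpjl), the summed counts took 12.8% of KO_db/db library 1 and 1.38% of KO_db/db library 2, against 0.0292% to 0.0498% in db/db and 0.0070% to 0.0222% in db/+ libraries. Of these 35 genes, 0 and 1 were at 0 counts in the KO_db/db, 3 and 2 in the db/db and 4 to 17 in the db/+ libraries. Bhlha15 did not follow the enzymes, with 43.1 and 42.0 CPM in KO_db/db, 60.2 and 39.9 in db/db and 32.6 to 70.8 in db/+ libraries. It gave 1730 of the 1973 acinar counts in db/+ library 1 and 1541 of 3322 in db/+ library 3. Ductal genes took 0.0161% to 0.0532% in all libraries, mostly through Krt7 (174 to 326 CPM). Of these, Krt19, Muc1 and Cftr were higher in KO_db/db library 1 (9.36, 23.2 and 1.15 CPM) than in the other 6 libraries (0.176 to 1.22, 0 to 1.70 and 0 to 0.123 CPM). Summed Y-linked counts were 2911 in db/+ library 3 and 20 to 79 in the others. Eif2s3y gave 723 counts in db/+ library 3 and 0 in the others, whose Y-linked counts were mostly Kdm5d (14 to 74). Only db/+ library 3 showed the pattern of a male donor, so sex was not balanced between db/+ and the other groups. Replicates of each group differed by more than sampling noise, and with 2 or 3 mice a group an exact permutation test of a single gene could not go below p = 0.2 (0.333 for 2 against 2), so tests come from edgeR fitted across all genes. In these bulk samples, fewer cells with a transcript and less transcript per cell cannot be told apart. The 3 comparisons share groups and are not independent of each other.

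Aldh1a3 was very low in lean β-cells, high in db/db β-cells, and low again but above the lean level in KO_db/db β-cells. It measured 0.205, 0.0729 and 0.589 CPM in db/+ libraries 1 to 3, from 5, 2 and 17 counts. In db/db mice it measured 98.4 and 194 CPM, from 3353 and 8106 counts. In KO_db/db mice it measured 4.97 and 7.89 CPM, from 121 and 325 counts. The groups did not overlap. The gene lies at chr7:66390890-66427517 on the minus strand, and its counts sum all annotated exons. Which exons the floxed allele loses was not given in the sources used here, so reads from a deleted allele may be counted.

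In both comparisons with db/+, Aldh1a3 passed the filter on low counts only through the other group, so that these tests are not independent of that filter. For Aldh1a3 the log2 difference between db/db and db/+ was 8.92 ± 0.545 (SE, n = 2 and 3, adjusted p = 0.000408, edgeR), and 10.03 without db/+ library 3, which holds most of the lean counts. Between KO_db/db and db/db the log2 difference was -4.50 ± 0.435 (SE, n = 2 and 2, adjusted p = 0.0445, edgeR), a 22.6-fold lower level. Where 1 of the 2 db/db or KO_db/db libraries was left out, the lone library was assumed to vary like the other group, from which alone the spread of the test then came. Without db/db library 1 this difference was -4.90 with adjusted p = 0.0581 (edgeR). KO_db/db remained above db/+ by 4.44 ± 0.640 on the log2 scale (SE, adjusted p = 0.00327, edgeR), or by 5.53 without db/+ library 3.

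**Figure D1:**
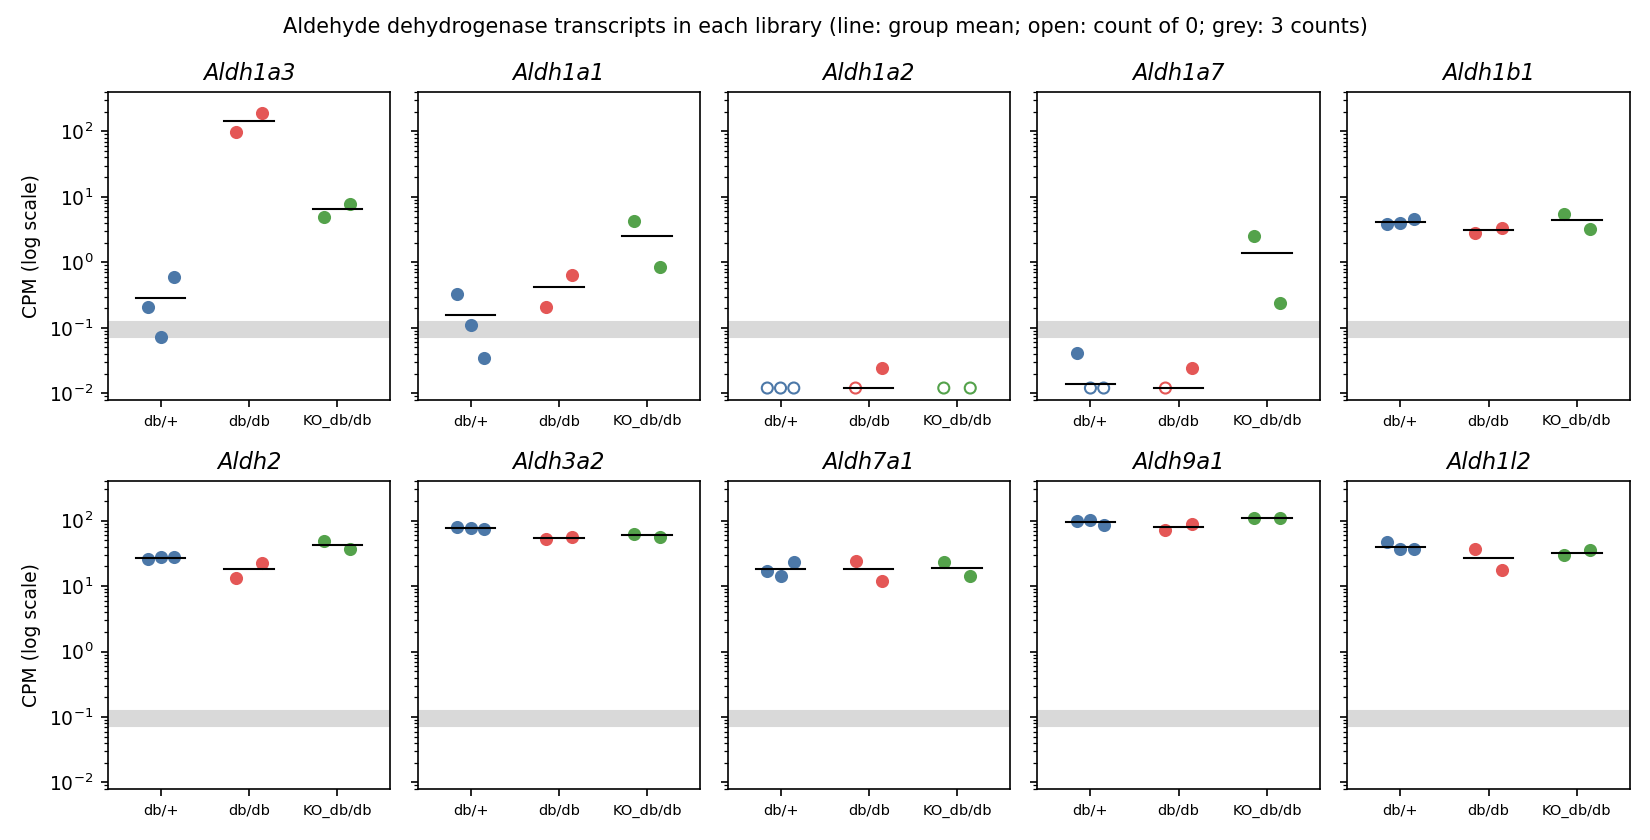
CPM of each of the 10 members (log scale) by group, 1 point per library, with a line at the group mean, open points at the bottom for a count of 0 and a grey band at the value of 3 counts. Aldh1a3 spans 0.0729 to 194 CPM, while Aldh3a2 and Aldh9a1 stay between 52.6 and 109 CPM in all 7 libraries.

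The other retinaldehyde dehydrogenases stayed scarce in every group. Aldh1a2, the main retinoic acid producing enzyme of the early embryo, gave 1 count in all 7 libraries, in db/db library 2, so that no level above the floor was detectable. Aldh1a1, a cytosolic enzyme abundant in liver and in stem cell populations, passed the filter on low counts only through the KO_db/db libraries, so that its tests against them are not independent of that filter. It measured 4.27 and 0.849 CPM in KO_db/db, 0.205 and 0.645 CPM in db/db, and 0.327, 0.109 and 0.0346 CPM in db/+ libraries. The KO_db/db libraries were above all the others, but KO_db/db library 1 stood far above library 2, and the latter was near db/db library 2. The counts behind these were 104 and 35, 7 and 27, and 8, 3 and 1.

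For Aldh1a1 the log2 difference of KO_db/db from db/+ was 4.02 ± 0.970 (SE, 95% interval 1.71 to 6.34, adjusted p = 0.0184, edgeR). It was 2.44 with adjusted p = 0.175 without KO_db/db library 1, the library with the 12.8% acinar share, and 3.83 with adjusted p = 0.0646 without db/+ library 2 (edgeR). Against db/db the log2 difference was 2.54 ± 0.980 (SE, 95% interval 0.07 to 5.02) and did not pass (adjusted p = 0.231, edgeR). It was 0.98 without KO_db/db library 1 and 3.60 without db/db library 2. The part of acinar or ductal RNA in the level of Aldh1a1 was not tested. From db/+ to db/db, Aldh1a1 was too low for the filter on low counts, and the ratio of summed counts was 3.01 (exact interval 1.52 to 6.39, counting error only). It rests on db/db library 2, without which it was 1.38 (0.461 to 3.81), and was 6.30 (2.25 to 24.4) without db/+ library 1.

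Aldh1a7, the rodent copy of Aldh1a1, was read almost entirely in KO_db/db libraries. It measured 2.50 and 0.243 CPM there, from 61 and 10 counts. Of the other 5 libraries, db/db library 2 and db/+ library 1 gave 1 count each and 3 gave 0. It was left out of both comparisons with KO_db/db by the filter. The ratio of summed counts of KO_db/db to db/db was 82.2, with an exact interval of 14.3 to 3293 for counting error only, and 18.4 (2.62 to 799.9) without KO_db/db library 1. It was 190.1 (32.9 to 7630.2) without KO_db/db library 2 and 45.3 (7.88 to 1815) without db/db library 1. Aldh1a1 and Aldh1a7 summed gave 165 and 45 counts in KO_db/db, 7 and 28 in db/db and 9, 3 and 1 in db/+ libraries. The summed level of KO_db/db was 6.95-fold that of db/db (exact interval 4.84 to 10.2, counting error only), or 2.37-fold (1.49 to 3.80) without KO_db/db library 1. Aldh1a7 made up 37.0% of this sum in KO_db/db library 1 and 22.2% in library 2, against 11.1% in db/+ library 1, 3.57% in db/db library 2 and 0% in the other 3 libraries.

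**Figure D2:**
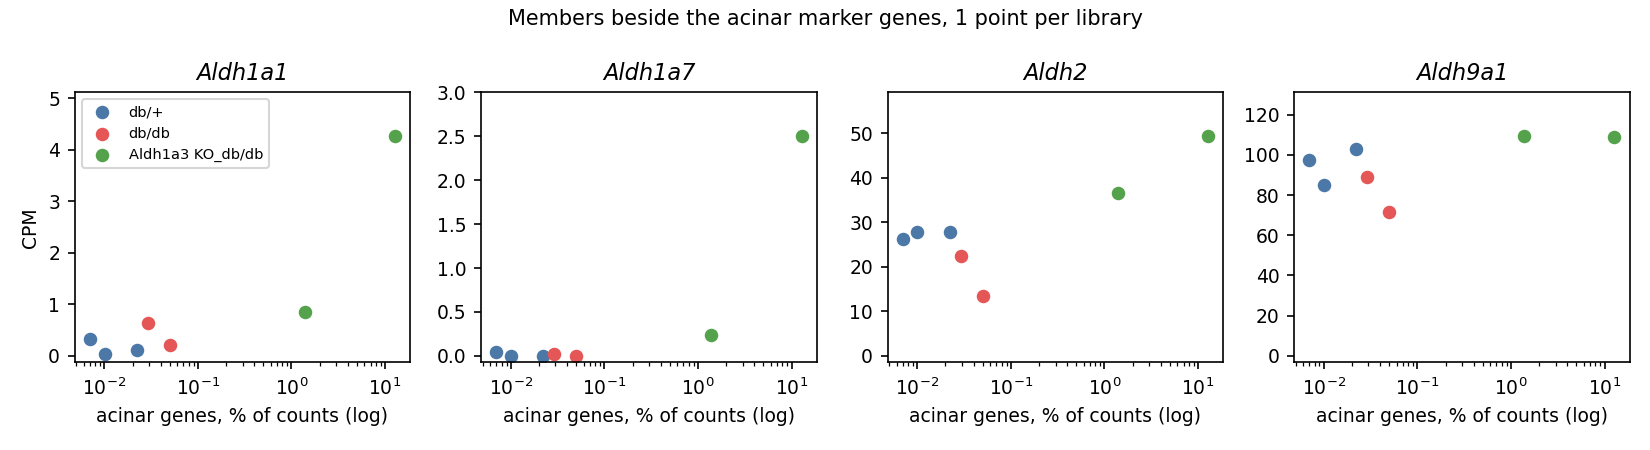
CPM of 4 members against the percent of counts taken by 35 acinar genes (log scale), 1 point per library, coloured by group. The library with 12.8% acinar counts has the highest Aldh1a1 (4.27 CPM), Aldh1a7 (2.50 CPM) and Aldh2 (49.4 CPM), while Aldh9a1 is 109 CPM in both KO_db/db libraries.

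Levels of different genes were compared per kilobase of the median annotated transcript. The retinaldehyde dehydrogenases Aldh1a1, Aldh1a2 and Aldh1a3 summed to 0.419, 0.144 and 0.576 CPM per kb in db/+, 92.4 and 182 in db/db, and 7.62 and 7.99 in KO_db/db libraries. In db/db, Aldh1a1 was 0.154% and 0.246% of that sum. In KO_db/db it was 38.8% of the sum in library 1 and 7.37% in library 2, and Aldh1a3 was the rest. The summed level of Aldh1a1 and Aldh1a2 in KO_db/db thus stayed far under the Aldh1a3 level of db/db. With the longest transcript as length the Aldh1a1 share was 55.7% and 13.6%.

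Aldh2, the mitochondrial enzyme that clears acetaldehyde and lipid peroxidation aldehydes, was lowest in db/db and highest in KO_db/db β-cells. It measured 26.2, 27.9 and 27.7 CPM in db/+, 13.5 and 22.5 CPM in db/db, and 49.4 and 36.5 CPM in KO_db/db libraries. With TMM scaling the 3 groups did not overlap, and db/db library 1 lay well under library 2. Scaled by total counts, db/db (16.2 and 27.7 CPM) overlapped db/+ (22.8, 24.4 and 24.2 CPM), and KO_db/db stayed highest (43.8 and 42 CPM). Aldh2 rose in KO_db/db against db/+ by 0.66 ± 0.141 on the log2 scale (SE, 95% interval 0.32 to 1.00, adjusted p = 0.0122, edgeR). With all 7 libraries in 1 fit, the adjusted p of this difference was 0.0526.

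Against db/db the log2 difference of Aldh2 was larger, 1.25 ± 0.297 (SE, 95% interval 0.50 to 2.00), without passing the test fitted on those 4 libraries (unadjusted p = 0.00734, adjusted p = 0.129, edgeR). It passed with all 7 libraries in 1 fit (1.25, adjusted p = 0.0324, edgeR, where 5.93% of all genes passed) and by DESeq2 (1.26, adjusted p = 0.00136, where 10.2% did). Leaving out each library in turn, it lay between 0.93 and 1.67. Between db/db and db/+ it was -0.61 ± 0.218 (SE, 95% interval -1.13 to -0.09, adjusted p = 0.0668, edgeR). Scaled by total counts it was -0.11 (adjusted p = 0.692, edgeR), whereas it passed by DESeq2 and with no filter on low counts (both -0.60, adjusted p = 0.0396 and 0.0264). With a single db/db library and the spread of db/+ alone, it was -1.03 (adjusted p = 0.00414) without db/db library 2 and -0.29 (adjusted p = 0.136) without db/db library 1.

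Aldh1b1, a mitochondrial relative of Aldh2 that also uses acetaldehyde, was low in all groups. It measured 3.81, 4.01 and 4.64 CPM in db/+, 2.82 and 3.32 CPM in db/db, and 5.46 and 3.28 CPM in KO_db/db libraries. The KO_db/db range enclosed that of db/+. No difference passed, and the log2 differences were -0.45 ± 0.240 for db/db against db/+, 0.50 ± 0.355 for KO_db/db against db/db and 0.07 ± 0.276 for KO_db/db against db/+ (SE; adjusted p = 0.186, 0.456 and 0.861, edgeR).

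Aldh1l2, the mitochondrial formyltetrahydrofolate dehydrogenase, measured 46.5, 36.8 and 37.2 CPM in db/+, 36.7 and 17.6 CPM in db/db, and 29.7 and 35.0 CPM in KO_db/db libraries. Db/db library 2 was low, and the other db/db library was close to the lean ones. The log2 difference of db/db from db/+ was -0.09 with total-count scaling (adjusted p = 0.811, edgeR). With TMM scaling it was -0.58 ± 0.297 (SE, 95% interval -1.29 to 0.13, adjusted p = 0.168, edgeR). With a single db/db library and the spread taken from db/+ alone, it was -1.20 (adjusted p = 0.0063) without db/db library 1 and -0.15 (adjusted p = 0.556) without db/db library 2. The differences of KO_db/db from db/db (0.25 ± 0.354) and from db/+ (-0.30 ± 0.142) did not pass (SE; adjusted p = 0.703 and 0.137, edgeR). Reads of Aldh1l2 may include those of D10Wsu102e.

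Aldh3a2, the fatty aldehyde dehydrogenase of the endoplasmic reticulum, was lower in both Lepr db/db groups than in lean β-cells. It measured 79.9, 78.4 and 73.6 CPM in db/+, 52.6 and 56.5 CPM in db/db, and 62.5 and 56.2 CPM in KO_db/db libraries. All 4 Lepr db/db libraries lay under all 3 lean libraries, while the db/db and KO_db/db ranges overlapped. The log2 difference of db/db from db/+ was -0.51 ± 0.103 (SE, 95% interval -0.76 to -0.27, adjusted p = 0.00962, edgeR), and that of KO_db/db from db/+ was -0.38 ± 0.093 (SE, adjusted p = 0.0199, edgeR).

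The fall of Aldh3a2 rests on the scaling. Scaled by total counts alone, without TMM, all genes shifted by a median log2 of 0.49 between db/db and db/+, -0.25 between KO_db/db and db/db and 0.22 between KO_db/db and db/+, and Aldh3a2 was then at -0.02 (adjusted p = 0.881) and -0.17 (adjusted p = 0.484) against db/+ (edgeR). Its change is thus one relative to most genes. Insulin transcripts took 32.2% to 36.1% of counts in db/+ and 21.8% to 24.4% in db/db and KO_db/db libraries. The call against db/+ in KO_db/db was also lost without db/+ library 1, db/+ library 2 or KO_db/db library 2 (-0.35, -0.37 and -0.31, adjusted p = 0.0691, 0.0622 and 0.0907, edgeR). KO_db/db differed from db/db by 0.12 ± 0.134 (SE, 95% interval -0.22 to 0.46, adjusted p = 0.638, edgeR).

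Aldh7a1, which acts in lysine breakdown, measured 17.3, 14.3 and 23.5 CPM in db/+, 24 and 11.9 CPM in db/db, and 23.6 and 14.2 CPM in KO_db/db libraries. The 3 groups overlapped throughout. Its log2 differences were -0.05, 0.07 and 0.04 in the 3 comparisons (adjusted p = 0.924, 0.939 and 0.922, edgeR), with 95% intervals of -0.83 to 0.74, -0.96 to 1.09 and -0.62 to 0.70 that leave room for a change of more than 1.5-fold either way.

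Aldh9a1, which makes the aldehyde-derived precursor of carnitine and oxidises aminobutyraldehyde, measured 97.4, 103 and 85.2 CPM in db/+, 71.7 and 89.2 CPM in db/db, and 109 CPM in both KO_db/db libraries. With TMM scaling the KO_db/db libraries were the highest of the 7. Scaled by total counts, db/db library 2 (110 CPM) lay above KO_db/db library 1 (96.4 CPM). The log2 difference of KO_db/db from db/db was 0.44 ± 0.156 (SE, 95% interval 0.04 to 0.83, unadjusted p = 0.0358, adjusted p = 0.214, edgeR). Those of db/db from db/+ (-0.25 ± 0.140) and of KO_db/db from db/+ (0.20 ± 0.104) did not pass either (SE; adjusted p = 0.1998 and 0.166, edgeR).

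By counts, 2 of the 7 members tested passed in db/db against db/+, Aldh1a3 higher and Aldh3a2 lower, where 37.8% of all genes passed (19.9% higher and 18% lower). Of 8 members tested between KO_db/db and db/db, Aldh1a3 alone passed, being lower, where 0.319% of all genes passed (0.126% higher and 0.193% lower). There 4 members had an unadjusted p under 0.05 (Aldh1a3, Aldh1a1, Aldh2 and Aldh9a1), as did 20.9% of all genes. Against db/+, 4 of 8 passed in KO_db/db, Aldh1a3, Aldh1a1 and Aldh2 higher and Aldh3a2 lower, where 38.4% of all genes passed (20.5% higher and 17.9% lower). The median log2 differences of the tested members were -0.45, 0.34 and 0.14, against 0.01, -0.02 and 0.00 for all genes tested. Between KO_db/db and db/db, the groups did not overlap with KO_db/db higher for 3 of the 8 members tested (28.4% of all genes tested) and lower for 1 (29.1%). Aldh1a7, which was not tested, was also higher without overlap. Aldh1a1 enters these counts although the filter passed it only through its KO_db/db libraries, and Aldh1a3 although it passed against db/+ only through the other group.

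**Figure D3:**
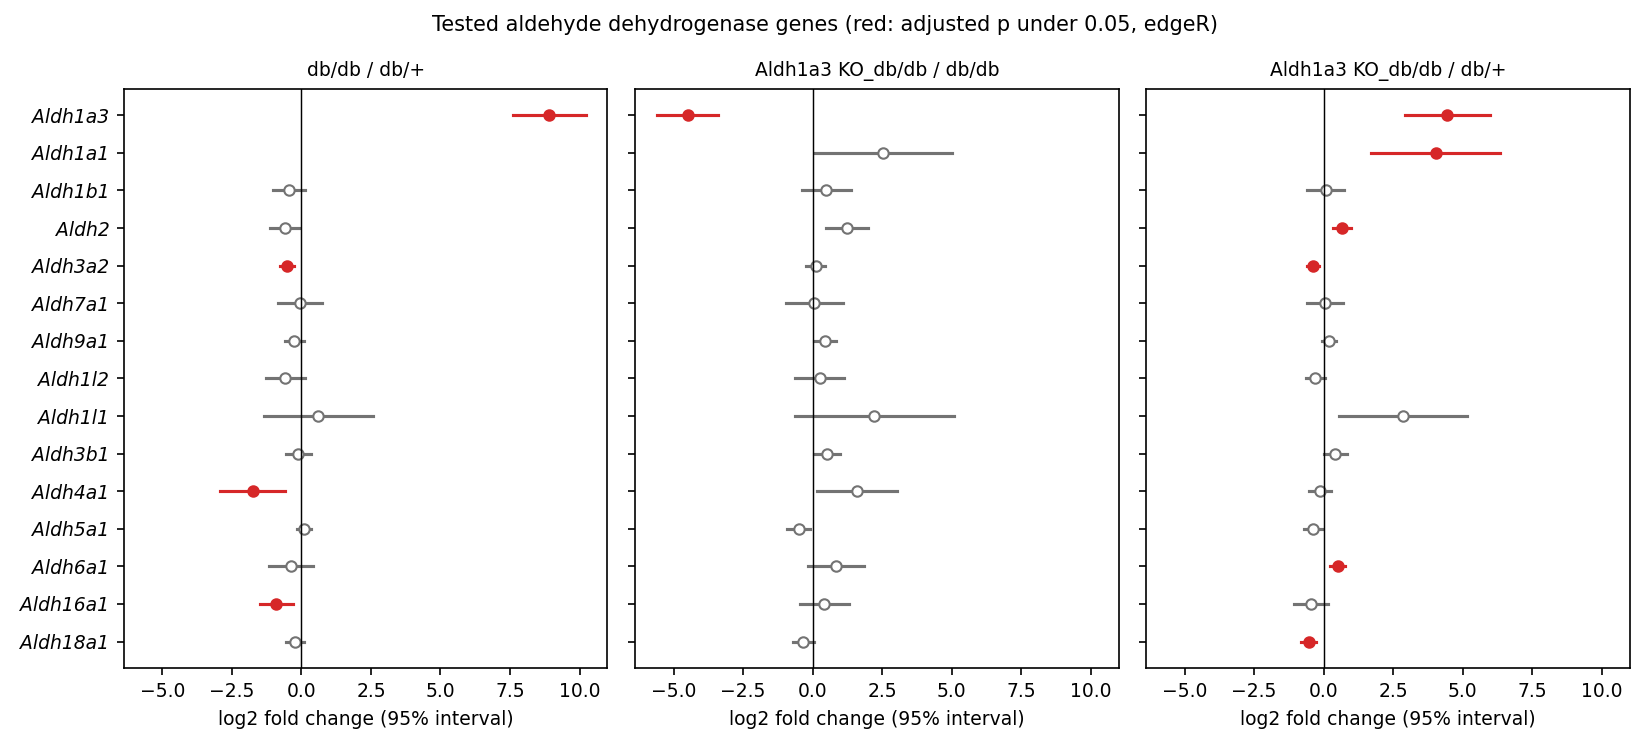
Log2 fold changes with 95% intervals of the aldehyde dehydrogenase genes tested in each comparison (members first, then other genes of the family), red where the adjusted p is under 0.05. Aldh1a3 is at 8.92, -4.50 and 4.44, and in the middle panel it is the gene in red.

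Of the 11 other aldehyde dehydrogenase genes, 7 were tested in each comparison. Aldh3a1, Aldh3b2, Aldh3b3 and Aldh8a1 had at most 7 counts in any group. In db/db against db/+, 2 of the 7 fell, beside 18% of all genes called lower and 37.8% called in either direction. Aldh4a1, which completes mitochondrial proline breakdown, measured 13.5, 12.6 and 17.4 CPM in db/+, 1.91 and 6.74 CPM in db/db, and 13.5 and 12.8 CPM in KO_db/db libraries. Its log2 difference of db/db from db/+ was -1.75 ± 0.491 (SE, adjusted p = 0.0311, edgeR), and of KO_db/db from db/db 1.59 ± 0.566 (SE, adjusted p = 0.212). Aldh16a1, a family member without a known enzymatic role, fell by 0.91 on the log2 scale (SE 0.251, adjusted p = 0.0293, edgeR). Both calls were lost with total-count scaling (-1.25 and -0.42, adjusted p = 0.0699 and 0.198, edgeR). That of Aldh4a1 was also lost without any 1 of the db/+ libraries (-1.84 to -1.59, adjusted p = 0.0607 to 0.0743), its value was -1.12 without db/db library 1 and -2.94 without db/db library 2, and that of Aldh16a1 without db/db library 2, db/+ library 1 or db/+ library 2 (-0.98 to -0.71, adjusted p = 0.0579 to 0.114). Without db/db library 2, the difference of Aldh4a1 between KO_db/db and db/db was 2.78 (adjusted p = 0.0373, edgeR), from a single db/db library with the spread of KO_db/db alone.

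Between KO_db/db and db/db none of the 7 passed by edgeR, with 3 at an unadjusted p under 0.05 and 1 passing by DESeq2, beside 0.319%, 20.9% and 10.2% of all genes. Against db/+, Aldh6a1 rose and Aldh18a1 fell in KO_db/db, 2 of 7 beside 38.4% of all genes. Aldh6a1, the methylmalonate semialdehyde enzyme of valine breakdown, measured 45.6, 43.4 and 37.3 CPM in db/+ and 57.1 and 61.9 CPM in KO_db/db, with 19.4 and 46.3 CPM in the db/db libraries (log2 difference from db/+ 0.51 ± 0.113, SE, adjusted p = 0.0139, edgeR). Aldh18a1, which starts proline synthesis, measured 75.6, 90.8 and 89.5 CPM in db/+, 80.8 and 65.9 CPM in db/db and 59.9 and 57.1 CPM in KO_db/db (log2 difference from db/+ -0.54 ± 0.110, SE, adjusted p = 0.0105, edgeR). Aldh6a1 was not called with all 7 libraries in 1 fit (0.50, adjusted p = 0.239, edgeR) or without KO_db/db library 2 (0.44, adjusted p = 0.0671), and Aldh18a1 not with total-count scaling (-0.33, adjusted p = 0.199). Aldh1l1, the cytosolic counterpart of Aldh1l2, is named after its values were seen, because it followed the Aldh1a1 and Aldh1a7 pattern in KO_db/db library 1. It measured 3.98 and 0.461 CPM in KO_db/db, 0.235 and 0.693 CPM in db/db and 0.123 to 0.519 CPM in db/+, and its log2 difference of KO_db/db from db/+ did not pass (2.84 ± 0.969, SE, adjusted p = 0.0570, edgeR). It passed by DESeq2, and by edgeR with no filter on low counts and with total-count scaling (adjusted p = 0.0122, 0.0143 and 0.0231). Because Aldh1l1 was picked on its KO_db/db values, these tests are not independent of that choice. The log2 difference was 0.61 without KO_db/db library 1 and 3.69 without KO_db/db library 2, each from 1 KO_db/db library.

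Per kilobase of median transcript, Aldh1a3 made up 19.4% and 32.8% of the summed level of all 21 genes in db/db, 0.0143% to 0.119% in db/+, and 0.975% and 1.70% in KO_db/db libraries. Without Aldh1a3, the summed level was 456 to 478 CPM per kb in db/+, 383 and 372 in db/db, and 473 and 427 in KO_db/db libraries. With TMM scaling the db/db libraries were the lowest, and KO_db/db library 2 lay between them and the lean range. Scaling by total counts alone shifted all genes by a median log2 of 0.49 between db/db and db/+. The db/db libraries were then not the lowest, so their place rests on the scaling. In db/+ β-cells the order by mean was Aldh18a1 (142 ± 14.1 CPM per kb, SD, n = 3), Aldh9a1 (132 ± 12.7), Aldh3a2 (55.2 ± 2.34), Aldh2 (32.3 ± 1.10), Aldh7a1 (31.2 ± 7.94) and Aldh1l2 (29.0 ± 3.96). The ranges of Aldh18a1 and Aldh9a1 overlapped, as did those of neighbours among Aldh2, Aldh7a1 and Aldh1l2. In db/db the mean of Aldh1a3 (137 ± 63.2 CPM per kb, SD, n = 2) was the highest, with ranges overlapping those of Aldh18a1. With the longest transcript as length, Aldh9a1 came first and Aldh3a2 next in db/+, so this order depends on the length used, while the Aldh1a3 share in db/db was 22.2% and 34.1%.

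**Figure D4:**
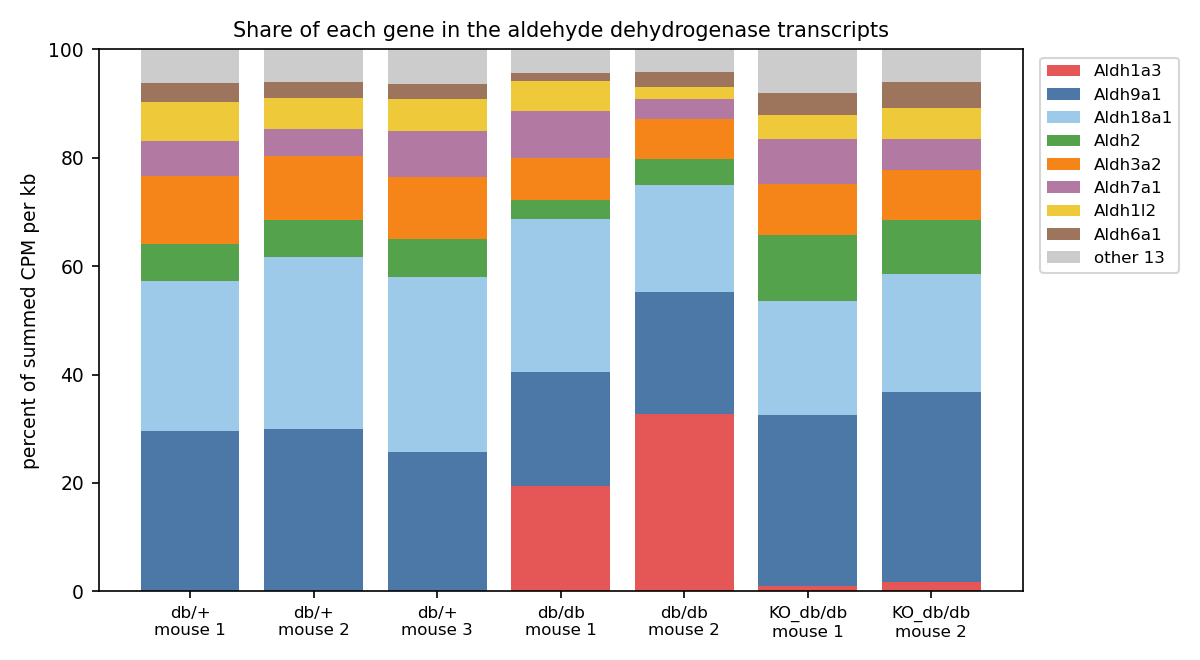
Percent of the summed CPM per kb of 21 aldehyde dehydrogenase genes held by each gene, 1 bar per library, with 13 scarcer genes pooled in grey. Aldh1a3 holds 19.4% and 32.8% in the db/db libraries and at most 1.70% in the others.

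Around the retinaldehyde step, 23 of 38 retinoid pathway genes were tested in db/db against db/+, where 37.8% of all genes were called. Bco1, Dhrs3, Dhrs7, Fabp5 and Rxra rose and 3 fell (Adh1, Dhrs4 and Rbp4). The log2 differences of the named genes that rose were 0.76 (Dhrs7) to 5.59 (Dhrs3), and of those that fell -2.78 (Rbp4) to -0.60 (Adh1). With total-count scaling, 10 of the 23 were called higher and 2 lower, without Adh1. Of all genes, 44.5% were then called higher and 5.97% lower, so this balance depends on the scaling. Dhrs3, which reduces retinaldehyde back to retinol, measured 0.409, 0.182 and 0.0346 CPM in db/+, 16.8 and 3.30 CPM in db/db, and 3.16 and 1.07 CPM in KO_db/db libraries. Its log2 difference was 5.59 ± 0.902 in db/db against db/+ (SE, adjusted p = 0.00439, edgeR) and -2.28 ± 0.900 in KO_db/db against db/db (SE, adjusted p = 0.238). Dhrs3 too passed the filter against db/+ only through the other group. Without db/db library 1, the higher of the pair, these differences were 3.98 and -0.66, and leaving out each library in turn they ran from 3.98 to 6.49 and from -3.23 to -0.66. Fabp5, a carrier of fatty acids and retinoic acid, measured 2.01, 1.64 and 1.70 CPM in db/+, 9.07 and 18.2 CPM in db/db, and 4.84 and 7.23 CPM in KO_db/db libraries, so that KO_db/db lay between the other groups.

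Dhrs4, another retinaldehyde reductase, went the other way, with 28.4, 24.7 and 25.8 CPM in db/+, 7.31 and 6.47 CPM in db/db, and 13.5 and 8.76 CPM in KO_db/db libraries. Its log2 differences from db/+ were -1.94 ± 0.147 in db/db and -1.24 ± 0.197 in KO_db/db (SE; adjusted p = 0.000577 and 0.00459, edgeR). None of 24 retinoid genes passed between KO_db/db and db/db by edgeR, with 7 at an unadjusted p under 0.05 and 3 passing by DESeq2, beside 0.319%, 20.9% and 10.2% of all genes. Against db/+, 4 of 22 rose in KO_db/db (Dhrs3, Fabp5, Rara and Rxra) and 3 fell (Adh1, Dhrs4 and Rdh14), beside 38.4% of all genes, with log2 differences of 0.85 (Rara) to 3.34 (Dhrs3) and -1.24 (Dhrs4) to -0.51 (Rdh14). The call of Dhrs3 against db/+ was lost without KO_db/db library 1 (2.36, adjusted p = 0.173, edgeR) or db/+ library 2 (3.27, adjusted p = 0.0748).

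Among 17 other aldehyde-clearing enzymes (aldehyde oxidase, aldo-keto reductases and others), 13 were tested in db/db against db/+, and 4 fell (Akr1b10, Akr1b3, Aox1 and Esd, log2 differences -1.83 to -0.56) while none rose, beside 37.8% of all genes called. Aox1, aldehyde oxidase, measured 6.06, 4.16 and 3.67 CPM in db/+, 1.03 and 1.58 CPM in db/db, and 1.89 and 2.94 CPM in KO_db/db libraries. Of 14 tested with KO_db/db, none passed against db/db by edgeR (2 at an unadjusted p under 0.05, beside 20.9% of all genes, and 0 by DESeq2), and against db/+ Akr1b3 (-0.45) and Esd (-0.71) fell, where 38.4% of all genes were called. Xdh was called higher there (log2 difference 3.70), but passed the filter on low counts only in the comparisons with KO_db/db, where it is high. Of 10 folate one-carbon genes, which share the substrate of Aldh1l2, 3 fell in db/db against db/+ (Mthfd1, Mthfd2 and Shmt2, log2 differences -1.58 to -0.99) and none rose, again beside 37.8% of all genes called. Mthfd2, the mitochondrial methylene-tetrahydrofolate dehydrogenase, measured 46.9, 68.1 and 54.8 CPM in db/+, 18.3 and 19.7 CPM in db/db, and 18.2 and 23.1 CPM in KO_db/db libraries. It was the only folate gene called in KO_db/db against db/+ (-1.44 ± 0.191, SE, adjusted p = 0.00249, edgeR), and none of 10 was called against db/db by edgeR, with 2 at an unadjusted p under 0.05 and 2 by DESeq2, beside 20.9% and 10.2% of all genes.

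Of 7642 genes with a mean of at least 10 CPM, the 5 with levels most like those of Aldh1a3 over the 7 libraries were Gria2, Pabpc1, Fancm, Rapgef5 and Lpin2. Their Pearson r of log2 CPM was 0.990 to 0.995. None is an aldehyde dehydrogenase, but so short a list would seldom hold one in any case. As a description, this measure mostly reflects the order of the 3 groups. Rapgef5 measured 3.03 to 4.43 CPM in db/+, 81.5 and 87.6 CPM in db/db, and 18.6 and 22.4 CPM in KO_db/db libraries.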

How the data were processed

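Poly(A) RNA of sorted β-cells was sequenced as paired reads. The authors pseudo-aligned reads with kallisto (0.44.0 per the submitters' processing notes, GRCm38), and the deposited values are estimated counts per gene symbol, already whole numbers. Gene positions came from GENCODE M21 (GRCm38), which may differ from the annotation used for counting. Here, edgeR 4.0.16 was run on 1 pair of groups at a time, without the third (quasi-likelihood, legacy method, R 4.3.3) and with filterByExpr at a minimum count of 10, TMM scaling and Benjamini-Hochberg adjustment over all genes tested. A gene was called at an adjusted p under 0.05. SE is the log2 difference divided by the square root of F, and 95% intervals are per gene. Ratios of scarce counts have exact binomial intervals. DESeq2 1.42.0 and other settings were alternatives. All 10 members were named with each library's value, and genes of other lists where called in a comparison. Members and lists were chosen with earlier results of these data known. On simulated counts with 200 genes changed by a log2 of 2, the step recovered 190, 183 and 192 in db/db against db/+, KO_db/db against db/db and KO_db/db against db/+. It also called 10, 14 and 12 unchanged genes. The changed genes were drawn from well-counted ones, with the spread set by the trend over genes. Recovery of scarce genes or smaller changes was not tested. Counting error only is covered by floors and count intervals. Transcript length is annotated, not effective, length. The libraries came from separate mice. The result for 1 gene of the retinoid pathway list is not reported here.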

Additional observations from a re-analysis of the deposited data

How the results depend on the processing

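Groups of 2 or 3 mice limit all tests here, and low counts limit Aldh1a1, Aldh1a2 and Aldh1a7. Over 291 alternative values of members, 255 kept direction and side of the threshold, 15 reversed, 11 newly passed and 10 no longer passed. Between KO_db/db and db/db, members called numbered 3 with DESeq2, 4 with no filter on low counts (8% of all genes called), 2 with all 7 libraries in 1 fit, 3 with total-count scaling (9.05% of all genes) and 0 at an adjusted p under 0.01, and 0 to 1 leaving out 1 library, where 0 was without db/db replicate 1. The genes added were Aldh2 in each of the first 4 settings, Aldh1a1 without filter and with total-count scaling, and Aldh1a7 with DESeq2 and without filter. Other family genes called there numbered 1, 2 and 1 with DESeq2, no filter and total-count scaling (0 to 2 leaving out 1 library), retinoid genes 3, 4 and 5 (0 to 1), and folate genes 2 with DESeq2, with no filter and with all 7 libraries. In db/db against db/+, total-count scaling called 1 member (Aldh1a3), 1 other family gene (Aldh5a1, higher, with Aldh4a1 and Aldh16a1 lost) and 2 aldehyde-clearing enzymes (Akr1a1, higher, and Aox1, lower). An adjusted p under 0.01 left 0 other family genes and 1 aldehyde-clearing enzyme, and leaving out 1 library gave 0 to 2 and 1 to 4. In KO_db/db against db/+, an adjusted p under 0.01 left 1 member, 0 other family genes and 0 aldehyde-clearing enzymes. Other family genes numbered 4 with no filter and 1 with all 7 libraries, and aldehyde-clearing enzymes 1 with all 7 libraries, 1 with total-count scaling and 1 with the replicate block. Of all genes in this comparison, 27.5% were called with no filter, 33.4% with all 7 libraries and 27.4% with total-count scaling. Leaving out 1 library there gave 2 to 4 members, 1 to 2 aldehyde-clearing enzymes and 1 to 2 folate genes. With all genes, total-count scaling in db/db against db/+ called 44.5% higher and 5.97% lower, against 19.9% and 18% with TMM. Signs turned under total-count scaling for Aldh1b1 (0.046), Aldh7a1 (0.44), Aldh9a1 (0.24), Aldh6a1 (0.13) and Aldh18a1 (0.26) in db/db against db/+, Aldh3a2 (-0.15), Aldh7a1 (-0.23) and Mthfd2 (-0.11) in KO_db/db against db/db, and Aldh4a1 (0.078) in KO_db/db against db/+, none of them called. Leaving out 1 library, log2 differences not called with all libraries changed sign for Aldh7a1 (-0.64 to 0.37, -0.36 to 0.66 and -0.37 to 0.35 in the 3 comparisons), Aldh6a1 (-1.13, called at adjusted p = 0.00547 by edgeR without db/db replicate 2, to 0.13) and Aldh1l1 (-0.37 to 1.18) in db/db against db/+, Aldh1l2 (-0.18 to 0.88), Aldh1l1 (-0.019 to 3.2) and Mthfd2 (-0.061 to 0.28) in KO_db/db against db/db, and Aldh1b1 (-0.34 to 0.39) and Aldh4a1 (-0.23 to 0.020) in KO_db/db against db/+. The labels' mouse numbers did not pair samples (r of same-numbered deviations -0.10 to 0.08). With the replicate block, members called were 3, 1 and 3, adding Aldh1l2 (-0.71, adjusted p = 0.0379, edgeR) in db/db against db/+ and losing Aldh2 (0.66, adjusted p = 0.0508, edgeR) in KO_db/db against db/+, and the signs of Aldh7a1 (0.10) in db/db against db/+ and Aldh4a1 (0.019) in KO_db/db against db/+ turned. Total-count scaling, the newer quasi-likelihood method and the ratios of scarce counts without 1 library were chosen after seeing the data. The cause of these shifts was not tested.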
